A study of Mus musculus with 3 samples.

Results

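The squamous lineage transcription factors Sox2, Sox9, Trp63, Klf4, Klf5 and Myc were followed through single cells of a mouse esophageal culture. The 6 genes were picked by symbol, as known squamous lineage factors and with earlier results of these data in view, from the 32287 features of the count matrix. The cells, called PC in the labels, came from esophageal organoids of mice with floxed Trp53 alleles. Adenoviral Cre with EGFP removed Trp53, the gene of the tumour suppressor p53, and CRISPR/Cas9 then disrupted Cdkn2a, the gene of the cell cycle inhibitors p16 and p19Arf. All cells carried constitutive Cas9, received a library of genetic barcodes, went through 3 passages and were sorted as live and RFP-positive. Every group described here shares this history, and whether each cell carried the Trp53 and Cdkn2a changes was not checked here. The culture is 1 sample without an unedited control, and the spread between cultures is unknown. A further line that also lacks Notch1 was not analysed here.

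Stratified squamous epithelium renews from a basal layer whose daughter cells stop dividing and differentiate as they move outward. SOX2 and p63, the product of Trp63, hold the basal squamous identity of the esophagus, and p63 acts on the genes of basal keratins, hemidesmosomes and desmosomes. KLF5 is known from the proliferating basal layer and KLF4 from the differentiating layers above it, where it promotes barrier genes. SOX9 marks progenitors of many ducts and glands and of the embryonic foregut, and MYC pairs with MAX to drive ribosome production and growth.

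Values are UMIs, unique molecules counted from the 3' ends of transcripts, so levels were not divided by gene length. A level is given in CPM, the UMIs of a gene per 1000000 UMIs summed over a set of cells, with its exact 95% Poisson interval in parentheses. Barcodes with under 500 genes, under 1000 UMIs or over 20% of UMIs from mitochondrial genes were left out. This kept 14925 of 18116 (82.4%), with a median of 2955 UMIs and 1499 genes. Detection depends on depth, so each cell was thinned at random to 1500 UMIs, which left out 1644 shallower cells. Intervals and limits cover counting error only.

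The 13281 thinned cells were gated by marker UMIs, none from the 6 factors. Cells with at least 3 UMIs of Epcam, Cdh1, Cldn4, Cldn7, Dsp, Perp, Esrp1 and Spint1 and at most 1 UMI of Vim, Col1a1, Col1a2, Col3a1, Col5a1, Dcn, Grem1 and Aebp1 formed the epithelial gate. It held 9160 cells (69.0%, median 3057 UMIs before thinning). The reverse formed the mesenchymal gate, with 983 cells (7.40%, median 3317 UMIs). A further 25 cells had at least 3 UMIs of both lists, and 3113 met neither definition. The basal keratins Krt5 and Krt14 were found in 61.0% and 75.8% of epithelial-gate cells and in 2.44% and 20.2% of mesenchymal-gate cells. The third basal keratin gene, Krt15, was at 4.58 CPM in the epithelial gate, and the esophageal differentiation keratins Krt4 and Krt13 were at 1.05 and 8.14 CPM. The epithelial gate thus carried Krt5 and Krt14 and hardly any RNA of Krt4 or Krt13, whereas Krt10, a keratin gene of differentiating layers, was at 41.5 CPM. Summed markers of immune, endothelial and neural or melanocyte cells were at 56.7, 1.49 and 3.22 CPM in the epithelial gate and at 29.1, 0 and 1.798 CPM in the mesenchymal gate. Among the 7 immune markers most UMIs were from Cd14, with 1462 of 1671 in the epithelial gate, where the pan-leukocyte gene Ptprc had 1.

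Over all kept cells Sox9 had the highest level of the 6, at 337.0 CPM (331.7 to 342.4). Trp63 followed at 141.1 CPM (137.6 to 144.6), Klf4 at 95.04 (92.2 to 97.9), Klf5 at 73.4 (70.9 to 75.9), Sox2 at 66.1 (63.8 to 68.5) and Myc at 53.7 (51.6 to 55.9). No neighbours in this order had overlapping intervals. At their full depth 53.1% of cells had a Sox9 UMI and 13.95% a Myc UMI. These shares follow depth and are not read as shares of cells expressing a gene.

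In GENCODE M21 on GRCm38 all 6 are protein-coding genes. Sox2 lies on chromosome 3 from 34650405 to 34652461 on the plus strand, Sox9 on chromosome 11 from 112782224 to 112787760 (plus), and Trp63 on chromosome 16 from 25683763 to 25892102 (plus). Klf4 lies on chromosome 4 from 55527143 to 55532466 on the minus strand, Klf5 on chromosome 14 from 99298691 to 99315036 (plus), and Myc on chromosome 15 from 61985391 to 61990374 (plus). Trp63 spans 208.3 kb, whereas the other 5 span 2.06 kb (Sox2) to 16.3 kb (Klf5).

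MYC with MAX binds the E-box CACGTG, and KLF factors bind GC-rich boxes, so the promoters of the members are of interest as possible sites of factors within the same group. The RefSeq promoter table on GRCm38.p6 held 2 of the 6 genes, Sox2 and Klf4. The 250 bases before each start site are shown 5′ to 3′ on the gene's strand, from RefSeq's start (for Sox2 it lies before the GENCODE start given above), with capitals at the E-box CACGTG and at the GC box GGGCGG or its reverse complement CCGCCC. The Sox2 window is chr3:34649745-34649994 (plus strand) and the Klf4 window is chr4:55532476-55532725 (minus strand).
Sox2: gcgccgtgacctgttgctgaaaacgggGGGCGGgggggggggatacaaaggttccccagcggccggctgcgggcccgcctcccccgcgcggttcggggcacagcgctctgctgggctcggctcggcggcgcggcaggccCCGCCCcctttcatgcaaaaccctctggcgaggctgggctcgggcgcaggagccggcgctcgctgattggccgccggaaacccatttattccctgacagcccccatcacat
Klf4: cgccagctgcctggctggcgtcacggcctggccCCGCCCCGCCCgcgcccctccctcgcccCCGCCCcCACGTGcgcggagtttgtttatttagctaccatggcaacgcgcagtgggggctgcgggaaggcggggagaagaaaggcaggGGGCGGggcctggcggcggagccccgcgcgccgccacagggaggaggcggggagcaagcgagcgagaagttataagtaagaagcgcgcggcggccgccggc
The Sox2 window held 2 GC boxes and no E-box, and the Klf4 window held 4 GC boxes, 2 of them overlapping by 1 base, and 1 E-box 182 bases before the start. Of 32851 windows of this length, 32.7% held the GC box and 6.02% the E-box on either strand. The windows were 72.0% and 74.0% G and C, against a median of 52.4% over all windows. Neither window held the letters CACCC or ACAAT on either strand, which 52.0% and 27.7% of windows held. A match describes the sequence and is not a measured binding site.

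The first comparison set the epithelial gate against the mesenchymal gate. Trp63 separated them most, followed by Klf4 and Sox9, while Sox2, Klf5 and Myc had ratios below 2 with intervals that include 2. A gene was called when its levels differed at least 2-fold, the higher was at least 10 CPM and the intervals did not overlap. By this rule 3 of the 6 factors were higher in the epithelial gate and none was lower. Of the 9139 genes tested, 11.6% were higher and 11.4% lower. Intervals alone did not overlap for all 6 factors, and for 61.7% of the genes tested. The median ratio was 2.81 over the 6 and 1.02 over all genes tested.

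Trp63 was at 153.6 CPM (149.2 to 158.1) in the epithelial gate and at 4.79 CPM (2.74 to 7.78) in the mesenchymal gate, where the 983 cells held 16 UMIs. The ratio was 32.0 (19.7 to 56.1). Over the 13 alternatives it was between 28.0, without barcodes of 5% or more Malat1, and 66.9, without the top 10% of cells by doublet score. Doublet calling itself did not work here. At 1500 UMIs Trp63 was found in 20.1% of epithelial-gate cells (19.3% to 20.9%) and in 0.407% of mesenchymal-gate cells (0.111% to 1.04%). The share of mesenchymal-gate cells with a Krt5 UMI was 2.44%, and that of epithelial-gate cells with a Vim UMI was 0.764%. The epithelial gate itself allowed at most 1 UMI of the list that holds Vim. The Vim share is therefore capped and cannot be set against that of Trp63. RNA from broken cells can enter any droplet, its part in these shares was not tested, and no share of Trp63-expressing mesenchymal-gate cells is read from them.

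Klf4 was at 109.8 CPM (106.0 to 113.6) in the epithelial and 20.7 CPM (16.1 to 26.2) in the mesenchymal gate, a ratio of 5.31 (4.18 to 6.84). Sox9 was at 382.3 CPM (375.3 to 389.4) and 103.7 CPM (93.0 to 115.2), a ratio of 3.69 (3.31 to 4.12), and at 1500 UMIs it was found in 40.9% and 12.7% of cells. Both genes thus kept more of their epithelial level in the mesenchymal gate than the keratins did. Klf4 had 18.8% of its epithelial level there (14.6% to 23.9%) and Sox9 27.1% (24.3% to 30.2%), against 2.25% for Krt5, 11.9% for Krt14 and 3.12% for Trp63. The gate markers Perp and Dsp had 18.1% and 16.3%. Klf4 was found in 2.34% of mesenchymal-gate cells at 1500 UMIs and Krt5 in 2.44%. Krt5 was far more abundant in the epithelial gate, at 744.6 CPM, so these 2 shares cannot be set against each other. The part of RNA from broken cells was not tested, and no share of Klf4-expressing mesenchymal-gate cells is read from the Klf4 value.

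Klf5 was at 79.8 CPM (76.6 to 83.1) and 41.3 CPM (34.7 to 48.8), a ratio of 1.93 (1.63 to 2.31). For Myc the levels were 59.6 CPM (56.8 to 62.4) and 33.3 CPM (27.4 to 40.05), a ratio of 1.79 (1.48 to 2.19). Sox2 was at 69.9 CPM (66.9 to 73.0) and 40.1 CPM (33.6 to 47.5), a ratio of 1.74 (1.46 to 2.09). The 3 intervals include 2, and under other settings the ratio reached 2 and was called in 6 of 13 for Klf5, 4 of 13 for Sox2 and 2 of 13 for Myc. Sox2, a factor that acts with p63 in basal squamous cells, thus kept 57.4% of its epithelial level (47.9% to 68.4%) in cells that had hardly any Trp63. In the mesenchymal gate the intervals of Klf5, Sox2 and Myc overlapped one another, below Sox9 and above Klf4 and Trp63. In the 3113 cells of neither gate every factor was between its levels in the other 2 gates, for example Trp63 at 123.8 CPM (117.2 to 130.7) and Sox9 at 292.6 CPM (282.3 to 303.1).

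**Figure D1:**
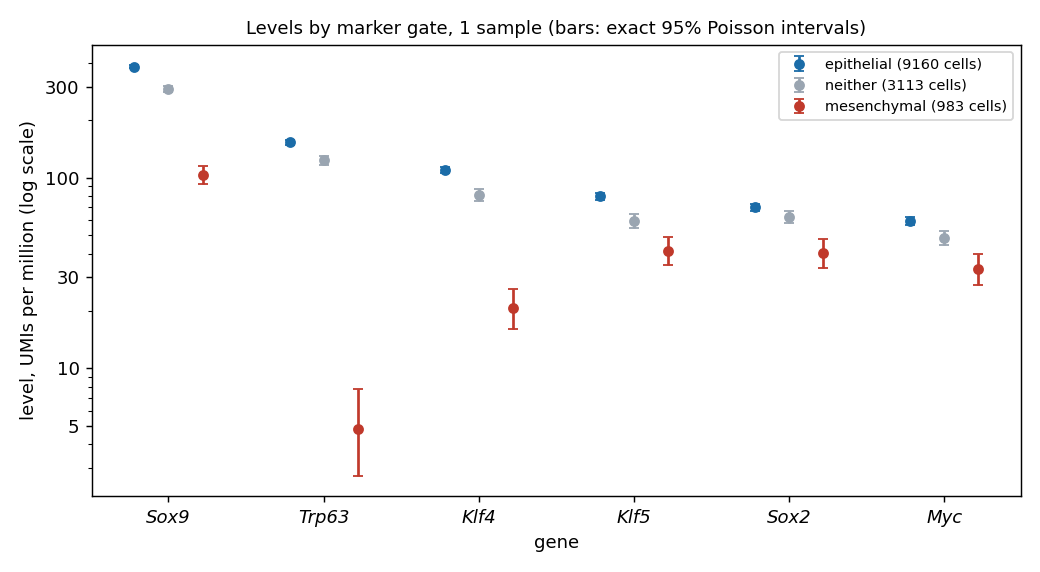
Levels of the 6 factors (x axis) in CPM on a log scale (y axis) in the epithelial, neither and mesenchymal gates of 1 sample, with exact 95% Poisson intervals as bars. Trp63 fell from 153.6 to 4.79 CPM between the epithelial and the mesenchymal gate, whereas Sox2 was at 69.9 and 40.1 CPM. The 25 cells with both marker lists are not drawn.

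Other genes of the squamous program were compared in the same gates. Of 40 further transcription factors of squamous epithelium, 29 reached 10 CPM in either gate, of which 12 were higher and 4 lower in the epithelial gate. Grhl2, a grainyhead factor of epithelial junction genes, was at 49.1 against 2.10 CPM, a ratio of 23.4 (11.3 to 58.4). The ETS factor Ehf was at 250.5 against 15.6 CPM (ratio 16.1, 12.2 to 21.5). Sox15 and Ovol2 were at 12.7 and 11.3 CPM against 1 UMI each in the mesenchymal gate, with ratios of 42.4 (7.56 to 1678) and 37.7 (6.72 to 1494). In the other direction, Klf2 was 4.95 times, Prdm1 2.90 times, Cebpb 2.12 times and Klf7 2.08 times as high in the mesenchymal gate. Members of the KLF family thus went both ways, with Klf4 higher in the epithelial gate and Klf2 and Klf7 higher in the mesenchymal gate.

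Most known p63 targets were called higher in the gate with the higher Trp63 level. Of 16, 15 were tested, and 12 were higher in the epithelial gate and 0 lower, with a median ratio of 6.81 against 1.02 over all genes tested. Perp and Dsp on this list helped to define the gate. Krt5 had a ratio of 44.4 (34.2 to 58.8), Col17a1, a hemidesmosome collagen, 32.2 (23.5 to 45.3), and the desmosomal cadherin gene Dsc3 22.7 (8.82 to 83.5). The Notch ligand gene Jag2 followed with 17.9 (8.21 to 49.0) and the laminin-332 chain gene Lama3 with 17.2 (12.3 to 24.7). Itga3, Fgfr2 and Dst were tested and not called, with ratios of 1.60, 1.83 and 1.28, and were named after their values were seen.

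MYC-linked genes differed less. Of 10 genes that pair or compete with MYC, 8 were tested and 1 was called, Mycl, a MYC family member, at 25.8 against 5.39 CPM (ratio 4.78, 3.01 to 8.11). Of 16 MYC targets, mostly nucleolar and ribosome assembly genes, 14 were tested and 1 was called, Nolc1 at 68.3 against 33.6 CPM (ratio 2.04, 1.68 to 2.49). The medians of these lists were 1.14 and 1.32. Of 14 squamous differentiation genes, 5 reached 10 CPM. Sprr1b and Krt10 were higher in the epithelial gate (ratios 21.9 and 2.07) and Sbsn was 2.004 times as high in the mesenchymal gate. Sprr1a and Ivl were tested and not called, but lay on the mesenchymal side with intervals apart. Sprr1a, the most abundant of the 5, was at 198.7 CPM in the epithelial and 396.1 CPM in the mesenchymal gate, and Ivl at 6.21 and 10.5 CPM. The median ratio of the 5 was 0.59.

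The next comparison asked how the 6 factors vary within the epithelial gate. Cells with at least 3 thinned UMIs of a marker list were set against cells with 0, for 7 lists, and Krt7 was split at 1 or more UMIs against 0. The lists were basal keratins, differentiated squamous genes, Ltf and Lcn2, chemokines, mitosis genes, DNA replication genes and immediate early genes. None of the 6 factors passed the 2-fold rule in any of the 8 splits. Calls over all genes, in either direction, came to 1.13% for basal keratins, 1.57% for differentiated squamous genes, 1.04% for Krt7, 8.26% for Ltf and Lcn2, 2.09% for chemokines, 7.83% for mitosis, 8.84% for DNA replication and 1.38% for immediate early genes. The measured ratios were thus all below 2-fold in these splits, though a failed call does not exclude a 2-fold difference. The interval for Myc by DNA replication genes, 0.40 to 0.83, includes one. Over finer bins of the same lists some levels differed by more than 2-fold, such as Klf4 by basal keratins, from 76.4 to 229.1 CPM. The factor values that follow describe differences that did not pass the rule and whose intervals did not overlap.

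**Figure D2:**
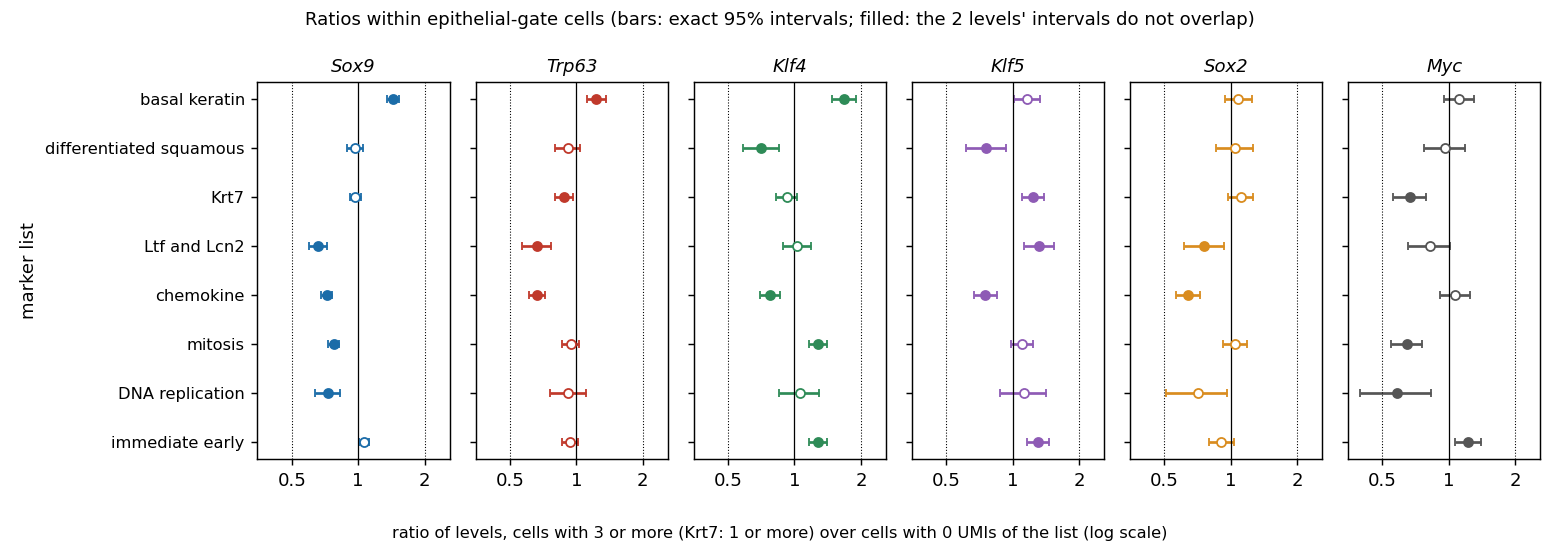
Ratio of each factor's level in epithelial-gate cells high for a marker list over cells without it (x axis, log scale) for the 8 lists (y axis). Bars are exact 95% intervals, filled points mark levels whose intervals do not overlap, and dotted lines mark 2-fold, which no point passes. Klf4 by basal keratins, at 1.68, lies highest and Myc by DNA replication, at 0.58, lowest.

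Klf4 differed between cells with and without basal keratin UMIs. It was at 128.2 CPM (122.5 to 134.0) in 4662 cells high for Krt5, Krt14 and Krt15 and at 76.4 CPM (67.7 to 85.9) in 1099 cells without them, a ratio of 1.68 (1.48 to 1.91). With gates at 5 UMIs this ratio was 2.49 and passed the rule. In cells binned by keratin UMIs, the level went from 76.4 CPM at 0 through 95.7 at 1 to 2, 111.9 at 3 to 5 and 159.3 at 6 to 11 to 229.1 CPM at 12 or more, the last from 152 cells. In 511 cells high for differentiated squamous genes Klf4 was at 77.0 CPM (64.2 to 91.7), against 108.7 CPM (104.2 to 113.3) in 6509 cells without, a ratio of 0.71 (0.59 to 0.85). Sprr1a and Sprr1b carried that list, at 1731 and 629.2 CPM in the high cells. The keratin ratio of Klf4 kept an interval above 1 in all 13 alternatives. The interval of the differentiation ratio included 1 in 5 of 12, among them gate threshold 2 (0.93) and the minimum of 1000 genes and 2000 UMIs (0.88, 0.74 to 1.04), so a lower Klf4 level beside differentiation genes depends on these settings.

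Klf4 also differed with mitosis, immediate early and chemokine genes, while its levels by DNA replication genes overlapped (ratio 1.06, 0.85 to 1.30). Its ratio was 1.27 (1.16 to 1.40) for mitosis genes, 1.28 (1.16 to 1.40) for immediate early genes, among which are Fos, Jun and Egr1, and 0.77 (0.70 to 0.86) for chemokines. By immediate early UMIs the level was 103.7 CPM at 0 and 187.2 CPM in the 241 cells with 6 to 11. Klf5 was at 95.01 CPM (87.3 to 103.2) in 1896 cells high for immediate early genes and at 73.0 CPM (67.5 to 78.7) in 2790 without, a ratio of 1.30 (1.16 to 1.46). Myc, itself an early response gene, had a ratio of 1.22 (1.07 to 1.40) in this split. Intervals that did not overlap were found for these 3 of the 6 factors, against 16.5% of all genes tested.

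Klf5 had a ratio above 1, and Sox9, Trp63 and Sox2 ratios below 1, in cells with Ltf and Lcn2, the genes of the secreted iron-binding defence proteins lactoferrin and lipocalin-2. In 562 such cells it was at 101.7 CPM (87.5 to 117.7), against 76.9 CPM (73.6 to 80.4) in 7857 cells without, a ratio of 1.32 (1.13 to 1.54). Sox9 was at 257.5 CPM (234.4 to 282.1) against 391.7 CPM (384.0 to 399.5), a ratio of 0.66 (0.60 to 0.72). Trp63 was at 105.1 CPM (90.6 to 121.3) against 158.4 CPM (153.5 to 163.3), also a ratio of 0.66 (0.57 to 0.77), and Sox2 had a ratio of 0.76 (0.61 to 0.93). By bins of these UMIs, Sox9 went from 391.7 CPM at 0 to 158.9 CPM and Trp63 from 158.4 to 68.1 CPM in the 113 cells with 12 or more. Intervals did not overlap for 4 of the 6 factors, against 29.0% of all genes tested. The median mitochondrial share was 3.85% in the high cells and 2.601% in those without, and its part in these differences was not tested.

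Other squamous genes passed the 2-fold rule in this split, where 4.36% of all genes tested were called higher and 3.9% lower. Of 31 further factors tested 7 were higher and 0 lower with Ltf and Lcn2, led by Klf2 (ratio 5.52, 3.07 to 9.55), Zfp750, a differentiation factor downstream of p63 (5.36, 4.01 to 7.09), Grhl1 (4.59, 2.63 to 7.71), Hopx (3.43) and Elf3 (2.77). Of 16 p63 targets tested 5 were lower and 0 higher, with Jag2 at 8.43 against 35.1 CPM (ratio 0.24, 0.13 to 0.40), Col17a1 at 125.4 against 404.0 CPM (0.31, 0.27 to 0.35), Dst at 0.44, Itga3 at 0.48 and Itgb4 at 0.49. Among MYC partners, Mxd1, a MAX-binding repressor linked to differentiation, was higher (3.65, 2.64 to 4.95). Of the differentiation genes, Krt13 and Sbsn were higher (9.49 and 4.13) and Sprr1b was lower (0.42). The p63 target list had a median ratio of 0.65 and Trp63 itself 0.66, beside a median of 0.96 over all genes tested.

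Sox9 and Trp63 took part in the basal keratin split too. Sox9 was at 406.9 CPM (396.7 to 417.2) in keratin-high cells and at 283.0 CPM (266.1 to 300.8) in cells without these keratins, a ratio of 1.44 (1.35 to 1.54). Trp63 was at 163.0 CPM (156.6 to 169.6) and 132.4 CPM (120.9 to 144.7), a ratio of 1.23 (1.12 to 1.36). Across the keratin bins Sox9 was at 382.0 CPM (370.45 to 393.8) already at 1 to 2 UMIs and at 408.5 CPM (396.3 to 420.9) at 3 to 5. It was at 380.4 CPM at 12 or more, from 152 cells. Most of its difference thus lay between the cells with none and all others, though the bins at 1 to 2 and 3 to 5 also had intervals apart. Intervals did not overlap for 3 of the 6 factors, against 17.4% of genes tested. Of the p63 targets 3 of 15 tested were called higher, Krt5 and Krt14, which define the split, and Dsc3 with a ratio of 2.71 (2.01 to 3.72). Median Malat1, a nuclear RNA, was 1.31% of UMIs in keratin-high cells and 1.85% in those without.

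Chemokine genes (Cxcl1, Cxcl2, Cxcl5, Ccl2, Ccl20 and Ppbp), which call in neutrophils and other leukocytes, gave ratios below 1 for 5 of the 6 factors. In 6202 cells high for them Sox2 was at 62.7 CPM (59.4 to 66.1), against 98.4 CPM (87.7 to 109.9) in 1199 cells without, a ratio of 0.64 (0.56 to 0.72). Trp63 was at 138.0 against 207.8 CPM (ratio 0.66, 0.61 to 0.72) and Sox9 at 353.6 against 490.8 CPM (0.72, 0.68 to 0.76). Klf5 and Klf4 had ratios of 0.75 (0.67 to 0.85) and 0.77 (0.70 to 0.86), whereas Myc was at 61.1 against 57.6 CPM (1.06, 0.91 to 1.25). Intervals did not overlap for 5 of the 6, against 28.5% of genes tested, and the median ratio over all genes was 0.93. In the bins, Trp63 went from 207.8 CPM at 0 through 185.1, 168.0 and 144.3 to 115.1 CPM at 12 or more chemokine UMIs, and Sox9 from 490.8 to 292.7 CPM. The cells without chemokine UMIs were shallower before thinning, with a median of 2460 UMIs against 3272.5, and the part of depth in these differences was not tested.

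**Figure D3:**
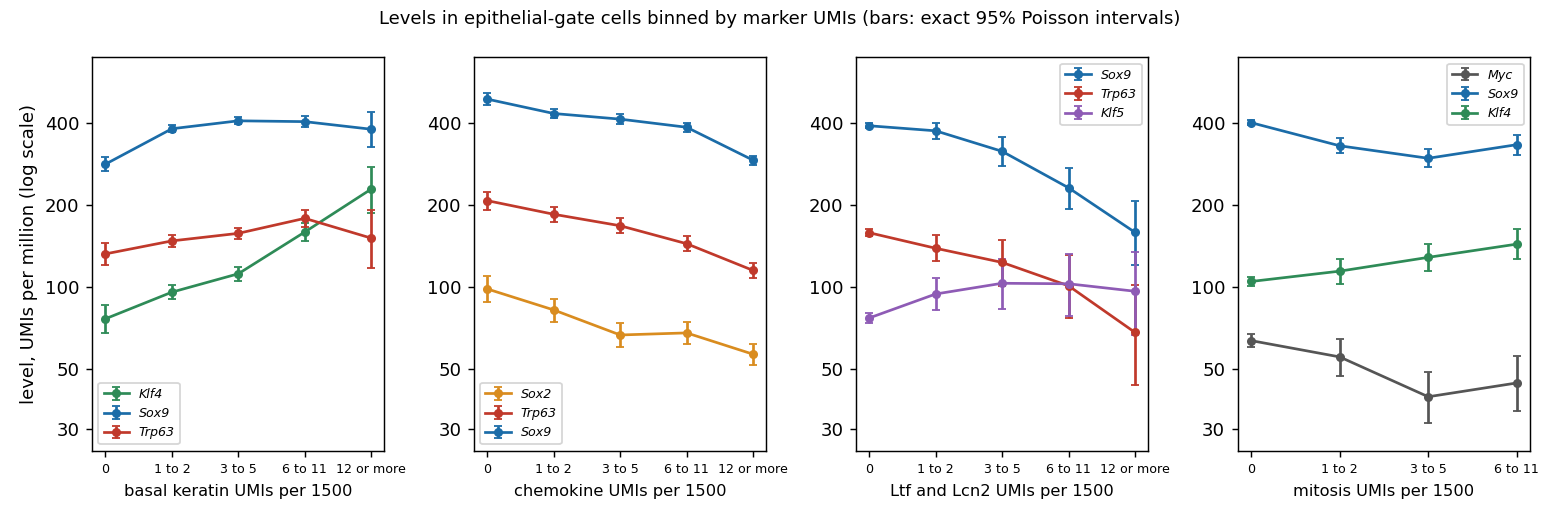
Levels in CPM (y axis, log scale) of 3 factors per panel in epithelial-gate cells binned by thinned UMIs of basal keratins, chemokines, Ltf and Lcn2, or mitosis genes (x axis), with exact 95% Poisson intervals. Klf4 runs from 76.4 to 229.1 CPM over the keratin bins, Trp63 from 207.8 to 115.1 CPM over the chemokine bins and Sox9 from 391.7 to 158.9 CPM over the Ltf and Lcn2 bins.

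For Myc the ratios with cell cycle genes were below 1, without passing the 2-fold rule. In 1082 cells high for mitosis genes it was at 41.1 CPM (35.2 to 47.8), against 63.5 CPM (60.3 to 66.9) in 7216 cells without, a ratio of 0.65 (0.55 to 0.76). In 246 cells high for DNA replication genes it was at 36.6 CPM (24.8 to 51.9), against 62.6 CPM (59.4 to 66.0), a ratio of 0.58 (0.40 to 0.83). Without the 10% highest doublet scores the latter was 0.50 and was called. Sox9 had ratios of 0.78 (0.73 to 0.82) and 0.73 (0.64 to 0.83) in the same splits, and Trp63, Sox2 and Klf5, and Klf4 by DNA replication genes, had levels with overlapping intervals. Intervals did not overlap for 3 of 6 and 2 of 6 factors, against 41.5% and 23.0% of genes tested, so these counts are near the background. Mitosis-high cells were deeper, with a median of 3690.5 against 2975.5 UMIs, and had 0.805% against 1.74% Malat1, and the part of both was not tested.

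MYC targets and partners were read beside Myc in these cells. With DNA replication genes 3 of 15 MYC targets tested were higher and 0 lower. They were Cad, which starts pyrimidine synthesis, at 15.3 against 4.08 CPM (ratio 3.76, 1.93 to 6.75), and the nucleolar genes Nop58 (2.30, 1.90 to 2.76) and Nop56 (2.22, 1.78 to 2.76). The MAX-binding repressor genes Mxd4 and Mxi1 were lower (0.33 for each) and Mxd3, known to rise in dividing cells, was higher (13.5, 8.42 to 21.3). With mitosis genes, Mxd3 was at 30.7 against 0.313 CPM (98.2, 46.3 to 249.1), Mxd4 had a ratio of 0.38 (0.31 to 0.45), and 0 of 14 MYC targets were called, with a median ratio of 1.37 beside 0.99 over all genes. The 3 targets named with DNA replication genes were picked by their calls in that split, where 6.58% of all genes tested were called higher. Over the 15 targets tested there the median ratio was 1.57, against 1.01 over all genes tested, and Myc RNA had 0.58.

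Krt7, a simple epithelial keratin, split the cells into 1195 with and 7965 without a UMI. Myc was at 41.3 CPM (34.8 to 48.6) with and 62.0 CPM (59.0 to 65.1) without Krt7, a ratio of 0.67 (0.56 to 0.79). Klf5 was at 96.3 CPM (86.3 to 107.2) with and 77.6 CPM (74.3 to 81.1) without, a ratio of 1.24 (1.10 to 1.39), and Trp63 had a ratio of 0.88 (0.80 to 0.97). Intervals did not overlap for 3 of the 6, against 23.4% of genes tested. Klf5 also had a ratio of 0.76 (0.62 to 0.93) for differentiated squamous genes, where intervals did not overlap for 2 of 6 factors (Klf4 and Klf5) and 11.5% of genes. This Klf5 interval included 1 in 6 of 12 alternatives, and another thinning seed alone gave 0.95.

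Listed genes called in the remaining splits were few. Prdm1 encodes a transcriptional repressor that acts in late epidermal differentiation. It was higher with differentiated squamous genes (ratio 2.18, 1.44 to 3.21), 1 of 28 further factors tested, and lower with mitosis genes (0.48, 0.29 to 0.76), 1 of 29. Zfp750 was higher with immediate early genes (3.35, 2.35 to 4.84), 1 of 28. Among the differentiation genes, Krt13 was higher with basal keratins (6.44, 3.21 to 15.1), with Krt7 (2.48, 1.82 to 3.34) and with immediate early genes (4.98, 3.39 to 7.50). Sprr1b was lower with Krt7 (0.37, 0.31 to 0.43) and higher with chemokines (2.26, 1.93 to 2.67), and Sprr1a was lower with DNA replication genes (0.41, 0.33 to 0.52). No p63 target was called by differentiated squamous genes, Krt7, chemokines, mitosis, DNA replication or immediate early genes.

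Co-detection was then counted at like depth. If 2 genes were detected independently, the number of cells with both would be the product of their shares times the number of cells. At 1500 UMIs in the epithelial gate, the 15 pairs of factors had 0.76 to 1.22 times that number. The exact binomial interval excluded the product for 2 of the 15. Sox2 and Myc were found together in 57 cells against a product of 74.5 (ratio 0.76, 0.58 to 0.99), and Klf4 and Myc in 127 cells against 104.1 (1.22, 1.02 to 1.45). Over all 6430833 gene pairs with products in the same range, 4.7% had such an interval, 2.82% above and 1.88% below the product. The middle 90% of pairs had ratios from 0.88 to 1.14.

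For the other pairs the interval included the product. Sox9 and Trp63 were found together in 800 cells against 752.1 (1.06, 0.99 to 1.14), Sox2 and Trp63 in 210 against 189.5 (1.11, 0.96 to 1.27), and Klf4 and Klf5 in 172 against 156.0 (1.10, 0.95 to 1.28). Correlations of detection (phi) among the 15 pairs were between -0.023 and 0.027 over 9160 cells of 1 library, too weak in sparse counts to be a finding. At 2500 UMIs, in 7756 cells, 4 pairs excluded the product, all above it. They were Klf4 and Myc (1.20, 1.06 to 1.35), Klf4 and Klf5 (1.19, 1.07 to 1.32), Sox2 and Trp63 (1.11, 1.00 to 1.22) and Sox9 and Myc (1.09, 1.01 to 1.17), whereas Sox2 and Myc came to 0.92 (0.77 to 1.08). Neither pair of the first count held under all 10 alternatives. The interval of Klf4 and Myc included the product in 7 of them, with ratios from 1.10 (another thinning seed) to 1.32, and that of Sox2 and Myc in 8. Over all 13281 thinned cells, which mix the gates, 8 of 15 pairs excluded the product, such as Sox9 and Trp63 at 1.15 (1.09 to 1.22). In the mesenchymal gate the counts of both genes were between 0 and 7 cells and 0 of 15 pairs excluded it.

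**Figure D4:**
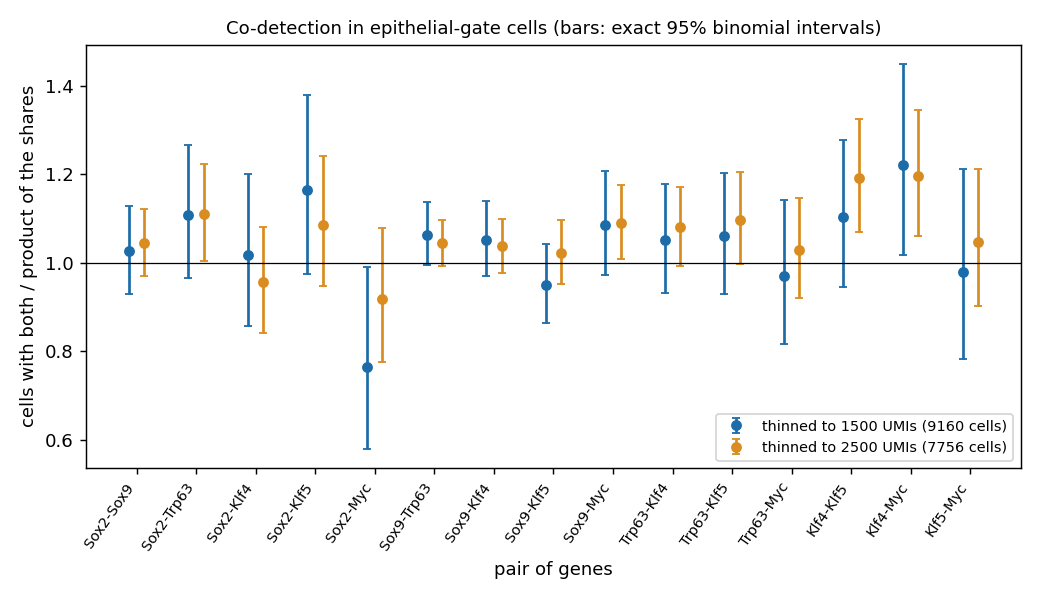
Cells with both genes of a pair divided by the product of the shares (y axis) for the 15 pairs of factors (x axis) in epithelial-gate cells thinned to 1500 or 2500 UMIs, with exact 95% binomial intervals. Most intervals include 1, and Klf4 with Myc, at 1.22 and 1.20, has intervals above 1 at both depths drawn, though not with another thinning seed at 1500 UMIs (1.10).

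Counted per cell, at least 1 of the 6 factors was detected in 69.5% of epithelial-gate cells at 1500 UMIs (68.6% to 70.5%), where the product of the shares gives 70.5%. At least 3 were detected in 618 cells, 6.75% (6.24% to 7.28%), against 6.12% from the product. All 6 were detected in 0 of 9160 cells, which allows a share of up to 0.0328% (3 counts of the total), and in 4 of 7756 cells at 2500 UMIs. Zeros in a cell at this depth therefore do not show that a factor was absent.

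The ratio of variance to mean was highest for Sox9, which also has the highest mean, and this ratio rises with the mean. The variance of its thinned UMIs was 1.25 times the mean, against a median of 1.03 and a 95th percentile of 1.21 over 2673 genes with means in the range of the 6. Trp63 had 1.17 and Klf4 1.15, and Sox2, Klf5 and Myc had 1.05, 1.05 and 1.07. The excess of this ratio over 1, divided by the mean, was 0.42 for Sox9, 0.87 for Klf4, 0.80 for Myc and 0.72 for Trp63, so Sox9 does not lead once the mean is taken into account. At 1500 UMIs, 87 epithelial-gate cells had 4 or more Sox9 UMIs, 15 had as many of Trp63 and 2 of Klf4.

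Epithelial-gate cells with a UMI of a factor were compared with cells without one, at 1500 UMIs, for the listed factors, MYC-linked genes, p63 targets and differentiation genes. A gene was called at a ratio of at least 1.5, at least 50 UMIs per 1000000 and intervals apart. No listed gene was called for any of the 6 factors, and calls over all genes tested were 0.366% for Sox2, 0.287% for Sox9, 0.34% for Trp63, 0.227% for Klf4, 0.339% for Klf5 and 0.652% for Myc. Intervals alone did not overlap for 5.97%, 9.08%, 13.7%, 6.69%, 7.72% and 7.23% of all genes in the same order. Among 13 p63 targets tested they did not overlap for 8 in cells with a Sox9 UMI (median ratio 1.11), 6 with a Trp63 UMI (1.13), 4 each with a Klf4 or Klf5 UMI, 2 with a Myc UMI and 1 with a Sox2 UMI. Cells with a UMI numbered 3742 for Sox9, 1841 for Trp63, 1317 for Klf4, 1085 for Klf5, 943 for Sox2 and 724 for Myc. Intervals narrow with more cells, so these counts do not rank the factors. For Myc, 1 of 9 MYC targets had intervals apart, with a median ratio of 1.00. Malat1 was 1.12 times as high in cells with a Myc UMI (1.10 to 1.13) and 1.04 times with a Trp63 UMI.

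The genes highest in phi with each factor were taken from 4482 genes found in at least 5% of epithelial-gate cells. They are given as a description over the 9160 cells of 1 library. Phi measures co-detection beyond the product of the shares, not the number of cells with both genes. Sox9 was most like Wfdc18, with a phi of 0.130, and its list also held Rflnb (0.084), Rbms3 and Tnc. For Klf4 the genes were Ly6d (0.060), Spink5, Krt5, Fst and Krt6a, and for Trp63 Galnt18 (0.061), Col17a1, Dpyd, Dst and Jmjd1c. Sox2 was most like Arl4a (0.058), Eya2, Dpyd, Sh3d19 and Myo6, Klf5 like Eya2 (0.050), Tuft1, Suco, Zfand5 and Znrf3, and Myc like Ly6a (0.057), Thbs1, Trp53, Snhg3 and Defb1. Trp53, the gene targeted with Cre, had UMIs in 7.11% of epithelial-gate cells, and the state of the gene in these cells was not examined. Wfdc18 was the only gene with a phi over 0.1 to any of the 6. Wfdc18 was found in 2749 cells with Sox9 against a product of 2471.5, a ratio of 1.11. The 50 genes most like Trp63 had a median span of 236.2 kb in the annotation, against 27.1 kb over all genes and 26.1 to 68.4 kb for the other 5 factors. Trp63 itself spans 208.3 kb, and whether reads from introns were counted is not given in the sources used here.

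Wfdc18, which encodes a small secreted protein with a WAP domain, and Ly6d, a surface antigen gene, were highest in phi with Sox9 and with Klf4. Cells were split by them after these values were seen, so the Sox9 and Klf4 values by them restate the likeness and carry no support. In 4647 epithelial-gate cells with at least 3 Wfdc18 UMIs Sox9 was at 466.6 CPM (455.6 to 477.8), against 279.0 CPM (268.9 to 289.5) in 3110 cells without, a ratio of 1.67 (1.60 to 1.75). Its level over bins of Wfdc18 UMIs went from 279.0 at 0 to 502.2 CPM at 12 or more. In the same split Klf4 had a ratio of 1.40 (1.29 to 1.51), Trp63 1.29 (1.20 to 1.37), Myc 1.24 (1.11 to 1.38) and Klf5 0.83 (0.76 to 0.91). None passed the 2-fold rule, as 1.26% of genes tested did, and intervals did not overlap for these 5 of 6 factors, against 21.8% of genes. Of the listed genes, Krt13 was 16.5 times, Zfp750 2.68 times and Mxd1 2.01 times as high in the cells without Wfdc18.

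In 1820 cells with at least 3 Ly6d UMIs Klf4 was at 149.4 CPM (139.6 to 159.6), against 95.7 CPM (91.2 to 100.3) in 5710 cells without, a ratio of 1.56 (1.44 to 1.69). Klf5 had a ratio of 1.28 (1.16 to 1.41), and the intervals of the other 4 factors overlapped, where 2.96% of genes passed the rule and 30.3% had intervals apart. Zfp750 was called higher with Ly6d (6.22, 4.77 to 8.17), as were Hopx (5.20), Cebpa (2.27) and Elf3 (2.12), 4 of 28 listed factors tested. The differentiation keratin gene Krt13 was called higher as well (15.7, 11.1 to 22.9) and the p63 target Jag2 lower (0.48, 0.38 to 0.59).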

How the data were processed

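The deposited matrix holds raw UMI counts per barcode and feature, made with Cell Ranger 8.0.1 per the file headers and not normalized. The submitters' processing notes name Cell Ranger, Scanpy 1.8.2 and the build mm10. Which of the 3 libraries of the labels (gene expression, barcode, scar) supplied the reads is not given in the sources used here, and the matrix counted as 1 sample. With 1 sample there was no test and no p-value.

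Computed here (Python, numpy, scipy, scanpy 1.11.5): filters, thinning, gates, summed counts as CPM with exact Poisson intervals, ratios with exact conditional binomial intervals, and shares with exact Clopper-Pearson intervals, all at 95%. Kept cells had 1000 to 23453 UMIs. Scrublet, with an expected rate of 5%, called 1 of 14925 cells (0.0067%) and so did not work, and doublets are taken as not removed. No barcode was repeated in the matrix. A gene with under 3 UMIs was set to 3 when ratios were ranked. The code was tested on simulated counts.

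The members, marker lists and gene lists were chosen with earlier results of these data known. Beside the 6 factors, the text names gate markers, the 5 genes highest in phi for each factor and, per comparison and direction, up to 5 listed genes ranked by called ratio. Some genes that this rule names are not reported here. The planned Krt7 split by quartiles could not be made, since both quartiles were 0, and was replaced by 1 or more UMIs against 0 after the data were seen. Alternatives changed the filters, gate threshold, thinned depth and seed, scaling and minimum level. Barcode and scar reads were not used here.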

Additional observations from a re-analysis of the deposited data

How the results depend on the processing

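Of 1262 values recomputed under 13 alternatives, 1160 were labelled unchanged, 88 moved and 2 reversed. The other 12 were epithelial over mesenchymal ratios that newly passed the 2-fold rule, and 0 lost it. Unchanged meant within the main interval or, for a count, within a set margin. For epithelial over mesenchymal ratios it meant the same call at any size, so Trp63 at 66.9 (main interval 19.7 to 56.1) was labelled unchanged. Some values could not change, such as levels over kept cells under another thinned depth or seed, and factor ratios under another minimum level. The number unchanged is therefore not a measure of stability. The 2102 genes called between the gates, for example, became 2047 to 2668 and were labelled unchanged. A reversal was labelled only where the main interval excluded 1. Other ratios also crossed 1, such as Trp63 by DNA replication genes, from 0.92 to at most 1.11. Sox9, Trp63 and Klf4 stayed higher in the epithelial gate in all 13. The epithelial over mesenchymal ratio of Klf5 passed the rule at 2.11 with at least 1000 genes and 2000 UMIs, 2.13 without barcodes of 5% or more Malat1, 2.12 without the 10% highest doublet scores, 2.08 at gate threshold 2, 2.06 thinned to 1000 and 2.12 with another seed. That of Sox2 passed at 2.05 without high Malat1, 2.03 without high doublet scores, 2.04 at gate threshold 5 and 2.24 thinned to 1000, and that of Myc at 2.01 thinned to 1000 and 2.16 thinned to 2500. The number of factors called was therefore 5 without high Malat1 or without high doublet scores and 6 thinned to 1000, against 3. The summed level of the 6, 766.3 CPM, was 748.7 with the stricter minimum, 758.2 without high doublet scores and 788.6 with the added sequences GFP and Scar out of the totals. Within the epithelial gate 1 factor was called at gate threshold 5 by basal keratins (Klf4) and 1 without high doublet scores by DNA replication genes (Myc). DNA replication gave values in 10 of the alternatives and differentiated squamous genes in 12, since the others left under 200 cells on a side.

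Of the 15 pairs, 2 excluded the product in the main analysis, 1 with the stricter minimum, at gate threshold 5 and with another seed, 4 without high doublet scores and thinned to 2500, and 0 with an epithelial gate without Perp and Dsp, an alternative chosen after seeing the data. The share over all gene pairs, 4.7%, was counted in the main analysis only. Sox2 with Myc reversed to 1.03 with the stricter minimum. The ratio of Sox2 by DNA replication genes reversed from 0.71 to 1.06 with another seed. Listed genes called between cells with and without a UMI, 0 in the main analysis, were 1 for Myc without high Malat1, 1 each for Sox2 and Myc at gate threshold 5, 1 for Sox2, 2 for Klf4, 1 for Klf5 and 2 for Myc thinned to 1000, 1 for Klf5 thinned to 2500 and with another seed, and 1 for Sox2 without Perp and Dsp. Of 60 factor ratios within the epithelial gate, 36 had an interval that excluded 1, and the share over all genes was not computed. The 36 include Sox9 by Wfdc18 and Klf4 by Ly6d, which restate the likeness and carry no support. Of the 36, 26 excluded 1 in every alternative run and 10 did not. Among the 10 were Klf4 (0.71 to 0.93) and Klf5 (0.70 to 0.95) by differentiated squamous genes. The cause of these changes was not tested. No paired analysis was possible because there is 1 sample. Depth limits the single-cell counts, since Myc had a mean of 0.0854 UMIs per epithelial-gate cell at 1500 UMIs.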
